A study of Mus musculus with 2 samples.

Results

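Transforming growth factor beta (TGF-beta) signalling was described here through 10 genes, *Tgfb1*, *Tgfb2*, *Tgfb3*, *Ltbp1*, *Tgfbr1*, *Tgfbr2*, *Tgfbr3*, *Eng*, *Smad3* and *Smad7*, taken by symbol from the 50768 gene rows of a pair of scRNAseq matrices. All 10 were present in both matrices. The libraries came from submandibular glands (SMG) with the adjacent sublingual glands (SLG) of 20-week-old female mice, 1 library of NOD/ShiltJ, an inbred strain that develops a Sjögren-like disease and was the genetic model, and 1 library of CD1, an outbred stock that served as the control. Neither group was treated, and both were processed as batch 1 after depletion of EpCAM+ and Ter119+ cells, so epithelium was largely removed. The mice of a strain were pooled (3 per the labels, 4 per the study's methods). Strain, library and pool therefore cannot be told apart, no replicate spread exists and no test between strains was possible. Every interval given is a 95% interval for counting error only.

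Barcodes with at least 500 unique molecular identifiers (UMIs) and 300 genes numbered 6500 of 43439635 UMIs in NOD/ShiltJ and 7014 of 49420810 UMIs in CD1. Lineages were assigned per barcode from UMIs of fixed marker genes, none of which was among the 10 genes. The NOD/ShiltJ library held 1807 T-like, 374 NK-like, 744 B-like, 717 macrophage-like, 1007 endothelial-like and 47 fibroblast-like barcodes. The CD1 library held 77, 263, 8, 2945, 2786 and 11 of these classes in the same order. A further 941 and 409 barcodes carried markers of several lineages and 769 and 440 too few markers, and these stayed unnamed. Median depth was 6563 and 8062 UMIs in T-like, 7788 and 10380 in NK-like, 5193 and 6242 in endothelial-like, but 3369 and 7040 in macrophage-like barcodes (NOD/ShiltJ and CD1). All 8 macrophage, all 8 endothelial and all 6 T markers were detected in their class in both libraries. The same markers named the classes, so their detection gives no separate support for the names. The libraries shared 18 barcode sequences.

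TGF-beta ligands are secreted in a latent complex, in which the mature dimer is held by its own propeptide and tethered to matrix by latent TGF-beta binding proteins such as the product of *Ltbp1*. Integrins of the alpha-v class release the ligand. The type II receptor (*Tgfbr2*) binds it and recruits the type I receptor (*Tgfbr1*), which phosphorylates Smad2 and Smad3. Betaglycan (*Tgfbr3*) and endoglin (*Eng*) are co-receptors, endoglin chiefly in endothelium, and Smad7 is an inhibitor induced by the pathway itself. TGF-beta is known for driving collagen synthesis in fibroblasts and for restraining T cells.

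*Tgfb1*, the ligand of immune cells, was found in every well-populated immune class and in endothelium. Its level, as UMIs per 1e6 UMIs of the class (CPM), was 144 in NK-like, 128 in macrophage-like, 113 in B-like, 91.5 in T-like and 69.3 in endothelial-like barcodes of NOD/ShiltJ. Fibroblast-like barcodes of that library had 22.5 CPM (12 UMIs). In CD1 the level was 145 in macrophage-like, 115 in NK-like, 97.6 in endothelial-like and 93.8 in T-like barcodes. The intervals of NK-like and macrophage-like barcodes overlapped in NOD/ShiltJ (132 to 158 and 117 to 139 CPM), and those of endothelial-like and T-like barcodes overlapped in CD1 (93.3 to 102 and 71.4 to 121 CPM). Within a class the strains lay close. The log2 ratio of NOD/ShiltJ over CD1 was -0.04 (-0.41 to 0.37) in T-like, -0.18 (-0.32 to -0.05) in macrophage-like, 0.33 (0.13 to 0.54) in NK-like and -0.49 (-0.65 to -0.34) in endothelial-like barcodes. None of these 4 values passed 1.5-fold. In NOD/ShiltJ the Foxp3-positive (106 CPM) and Cd4 (104 CPM) T-like groups exceeded the Cd8 group (71.4 CPM), with intervals of 90.7 to 123, 95.5 to 112 and 62.8 to 80.8 CPM. The endothelial ratio lay in capillary-like barcodes, with 69.6 and 101 CPM, while arterial-like barcodes had 63.1 and 45.0 CPM from 16 and 21 UMIs.

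The cells that carried *Tgfb1* did differ between the libraries, as did the sizes of the classes. Of the *Tgfb1* UMIs in barcodes with a named lineage, T-like, NK-like and B-like barcodes held 67.3% (65.6 to 68.9) in NOD/ShiltJ and 7.89% (7.17 to 8.65) in CD1. Of all UMIs kept, the same 3 classes held 13053248, 3179057 and 4427503 of 43439635 in NOD/ShiltJ. In CD1 they held 629167, 3073570 and 45974 of 49420810. Unnamed barcodes, which the shares leave out, held 8993251 (several lineages) and 1871943 (too few markers) of these UMIs in NOD/ShiltJ. In CD1 they held 4289740 and 1263268. Set against the UMIs of named barcodes, the *Tgfb1* shares largely followed class size. Of all *Tgfb1* UMIs, now with unnamed barcodes included, macrophage-like barcodes held 50.2% in CD1 and 12.6% in NOD/ShiltJ. The endothelial share was 32.2% and 9.31%. Over all barcodes together the level was 99.2 CPM in NOD/ShiltJ and 117 CPM in CD1, a log2 ratio of -0.24. When the CD1 class levels were weighted by the class sizes of NOD/ShiltJ, the ratio was 0.05. Cell numbers and RNA per cell both enter such sums over a library, and the number of barcodes of a class also depends on dissociation and depletion.

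*Tgfb2* was confined to few classes, chiefly endothelium and fibroblasts. Endothelial-like barcodes held 76.9% of its UMIs in NOD/ShiltJ and 87.8% in CD1, at 99.3 and 119 CPM (log2 ratio -0.26, -0.39 to -0.13). Fibroblast-like barcodes held 91.9 CPM (49 UMIs in 47 barcodes) and 226 CPM (28 UMIs in 11 barcodes), a log2 ratio of -1.30 (-2.0 to -0.58). In CD1, 1 barcode held 11 of these 28 UMIs, a spread that the interval leaves out. Arterial-like endothelial barcodes, named from UMIs of *Gja5*, *Gja4*, *Bmx*, *Hey1*, *Sema3g* and *Fbln5*, were at 474 CPM in NOD/ShiltJ (46 barcodes, 393 to 566 CPM) and 546 CPM in CD1 (92 barcodes, 481 to 618 CPM). Endothelial-like barcodes of no named subset were at 293 CPM (243 to 350) and 453 CPM (414 to 495), the latter overlapping the arterial interval. Capillary-like barcodes were lower, at 65.1 and 86.9 CPM, with intervals below those of the arterial-like and unnamed groups in each library. *Tgfb2* was unevenly spread, since the 10% of endothelial-like barcodes richest in it held 84.0% and 72.5% of its endothelial UMIs. Macrophage-like barcodes had 0 UMIs in NOD/ShiltJ, which allows up to 0.707 CPM, and 33 UMIs (1.64 CPM) in CD1, at least 2.32-fold higher.

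*Tgfb3* was scarce, with 58 UMIs in the NOD/ShiltJ library and 100 in CD1. Macrophage-like barcodes gave 11 and 65 of these, at 2.59 and 3.24 CPM, and fibroblast-like barcodes 5 and 1. No order of classes could be read at this depth. *Ltbp1* followed vessel and stroma. It was at 139 and 116 CPM in endothelial-like (log2 ratio 0.25, 0.13 to 0.37), 262 and 267 CPM in fibroblast-like, and 231 and 220 CPM in mural-like barcodes (14 UMIs each), and at most 3.18 CPM in T-like, NK-like and macrophage-like barcodes. Barcodes with UMIs of both *Tgfb2* and *Ltbp1* made up 10.4% (NOD/ShiltJ) and 12.5% (CD1) of endothelial-like barcodes and, thinned to 2000 UMIs each, 3.07% and 2.96%. As a class with little of either gene, T-like barcodes had a *Tgfb2* UMI in 0.166% and 2.6% of cases.

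**Figure D1:**
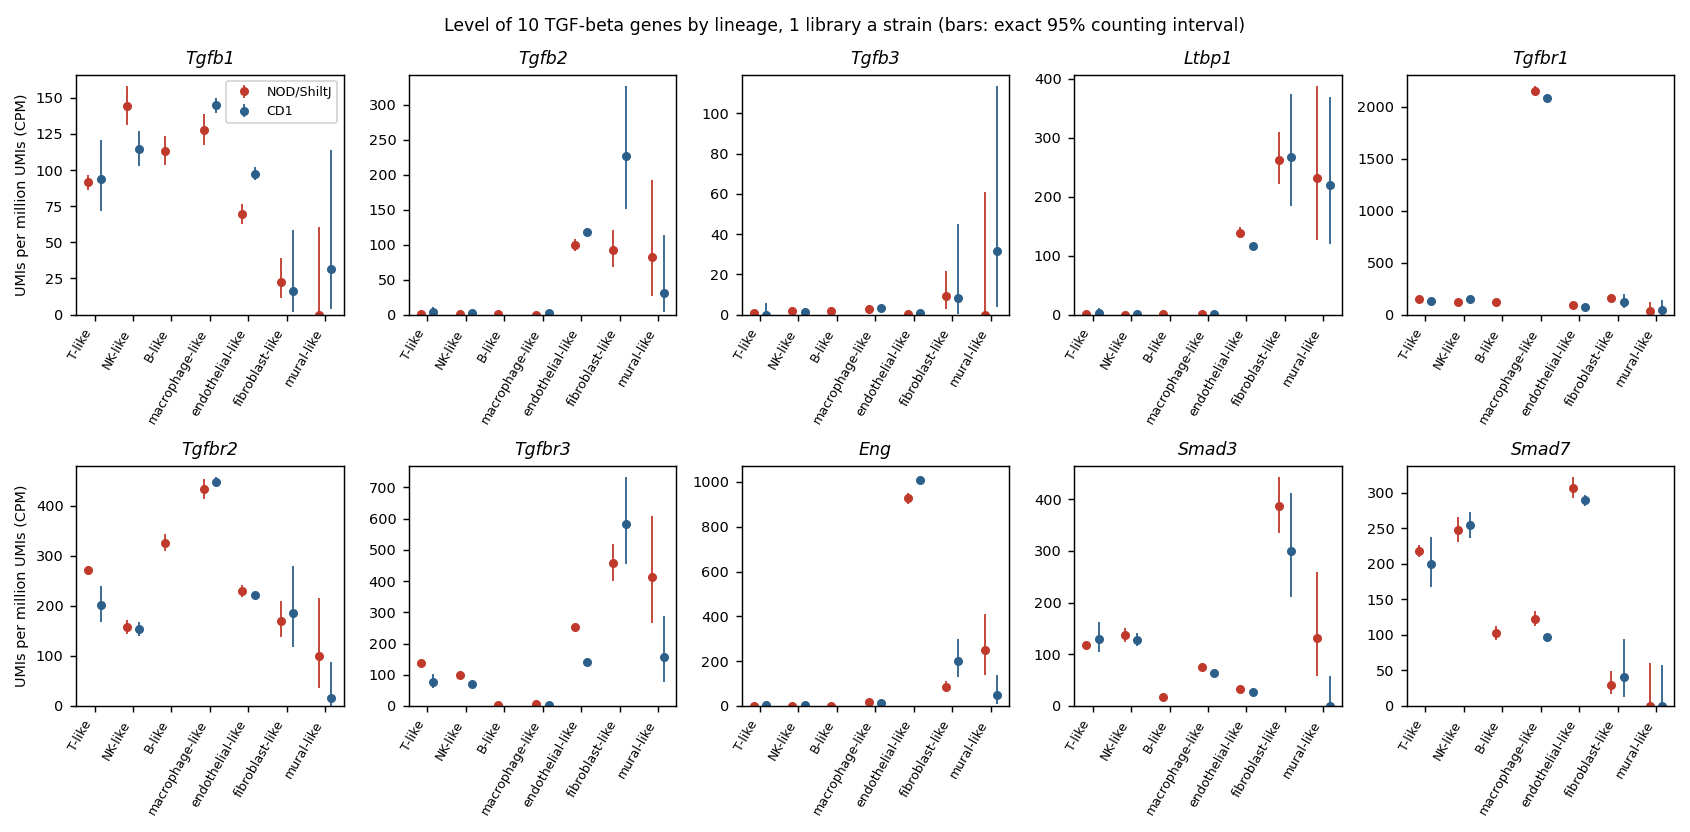
Level of each gene in CPM (vertical axis, from 0) in 7 lineages, with NOD/ShiltJ in red and CD1 in blue, in classes of at least 10 barcodes. Bars are exact 95% counting intervals. *Tgfbr1* peaks in macrophage-like barcodes at 2154 and 2080 CPM and *Eng* in endothelial-like barcodes at 928 and 1007 CPM, whereas *Tgfb1* and *Tgfbr2* spread over all immune classes.

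The sequence upstream of the start of *Tgfb1*, read in immune cells and vessels, is shown beside those of *Tgfb2* and *Eng*, which were both centred on endothelium. RefSeq (GRCm38.p6) gave a window for 7 of the 10 genes, and the 250 bases before the start are printed 5′ to 3′ on the strand of the gene. Capitals mark matches on either strand. The core of Smad binding sites was searched as CAGAC. A box rich in G and C was searched as CCGCCC. The TATA box was searched as TATAAA. The core bound by ETS factors was searched as CGGAAGT, which had no match, and no motif overlapped another.
*Tgfb1*, chr7:25686752-25687001, plus strand: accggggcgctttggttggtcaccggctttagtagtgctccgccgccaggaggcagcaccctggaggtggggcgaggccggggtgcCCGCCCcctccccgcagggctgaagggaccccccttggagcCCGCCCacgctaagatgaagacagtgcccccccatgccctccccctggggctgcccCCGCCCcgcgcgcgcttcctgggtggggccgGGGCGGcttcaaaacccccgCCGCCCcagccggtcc
*Tgfb2*, chr1:186705990-186706239, minus strand: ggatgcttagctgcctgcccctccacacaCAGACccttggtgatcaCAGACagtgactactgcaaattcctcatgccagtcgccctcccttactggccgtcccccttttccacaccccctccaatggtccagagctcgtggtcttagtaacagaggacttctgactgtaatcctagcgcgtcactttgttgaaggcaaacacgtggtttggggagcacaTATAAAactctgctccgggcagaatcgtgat
*Eng*, chr2:32646345-32646594, plus strand: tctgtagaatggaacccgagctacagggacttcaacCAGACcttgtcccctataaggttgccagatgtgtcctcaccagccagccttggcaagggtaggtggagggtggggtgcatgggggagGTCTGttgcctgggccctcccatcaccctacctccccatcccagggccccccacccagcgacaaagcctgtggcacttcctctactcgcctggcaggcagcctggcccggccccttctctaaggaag
The *Tgfb1* window held 5 copies of the GC-rich box and none of the other motifs. That of *Tgfb2* held a TATA box 31 to 26 bases before the start and 2 copies of the Smad core, and that of *Eng* held 2 copies of the Smad core. Of all 32851 RefSeq windows of this length 42.2% held the Smad core, 32.7% the GC-rich box, 12.4% the TATA box and 4.92% the ETS core. These letter matches are a description and were not tied to any value of this study.

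*Tgfbr1*, the signalling type I receptor, was dominated by macrophages. Macrophage-like barcodes carried 2154 CPM in NOD/ShiltJ (2110 to 2198, 9143 UMIs) and 2080 CPM in CD1 (2060 to 2100, 41793 UMIs). T-like barcodes had 152 and 132 CPM, NK-like 124 and 150 CPM, endothelial-like 89.2 and 76.5 CPM and fibroblast-like 156 and 121 CPM, so that macrophages exceeded each of them in both libraries. Macrophage-like barcodes held 60.6% of all *Tgfbr1* UMIs in NOD/ShiltJ and 89.6% in CD1. The strain ratio in macrophages was 0.05 on the log2 scale (0.02 to 0.08), and its sign changed between settings. Over all barcodes NOD/ShiltJ was lower, 347 against 944 CPM (log2 ratio -1.44), and -0.28 remained at equal class sizes. Barcodes with markers of several lineages, 1 class in that weighting, had 199 and 587 CPM. Their make-up differed, since 401 of 941 and 48 of 409 lay between T and NK. The -0.28 is therefore not a difference within the named classes alone. In NOD/ShiltJ, Foxp3-positive T-like barcodes, the regulatory T cell candidates, held 395 CPM (364 to 427) of *Tgfbr1* in 201 barcodes. Cd4 T-like barcodes had 129 CPM, Cd8 T-like 99.2 CPM and other T-like 121 CPM. CD1 held only 3 Foxp3-positive T-like barcodes, with 12 *Tgfbr1* UMIs.

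*Tgfbr2*, the ligand-binding type II receptor, was present across the immune, vascular and fibroblast classes. Its level was 433 and 448 CPM in macrophage-like, 271 and 202 CPM in T-like, 230 and 221 CPM in endothelial-like, 171 and 186 CPM in fibroblast-like and 158 and 153 CPM in NK-like barcodes. B-like barcodes of NOD/ShiltJ had 326 CPM. The strain log2 ratio was 0.42 (0.17 to 0.69) in T-like barcodes and 0.06 (-0.03 to 0.15), 0.05 and -0.05 in endothelial-like, NK-like and macrophage-like barcodes. At 2000 UMIs per barcode, UMIs of both receptors were found together in 44.9% (NOD/ShiltJ, 463 barcodes) and 47.6% (CD1, 2226 barcodes) of macrophage-like barcodes, and unthinned in 47.7% and 62.0%. In T-like barcodes the thinned share was 7.95% and 8.0%, and in endothelial-like barcodes 5.90% and 4.69%. As background, *Eng* had a UMI in 0.885% and 3.90% of T-like barcodes. Within T-like barcodes of NOD/ShiltJ, *Tgfbr2* was at 288 CPM in the Cd4, 268 CPM in the Cd8 and 182 CPM (161 to 204) in the Foxp3-positive group, so the group high in *Tgfbr1* was low in *Tgfbr2*.

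*Tgfbr3*, encoding betaglycan, had the highest strain ratio, among those of the 10 genes with at least 20 UMIs, in T-like, NK-like, macrophage-like and endothelial-like barcodes. Endothelial-like barcodes held 252 CPM in NOD/ShiltJ (239 to 265, 1457 UMIs) and 141 CPM in CD1 (136 to 147, 2696 UMIs), a log2 ratio of 0.84 (0.74 to 0.93). The difference lay in capillary-like barcodes, which had 268 and 142 CPM (log2 ratio 0.91, 0.82 to 1.01), while arterial-like barcodes had 94.7 and 103 CPM (-0.12, -0.89 to 0.62). T-like barcodes had 137 and 77.9 CPM (0.81, 0.41 to 1.25) and NK-like barcodes 98.8 and 69.0 CPM (0.52, 0.26 to 0.78). Within T-like barcodes of NOD/ShiltJ the Cd8 (163 CPM) and Cd4 (152 CPM) groups were high and the Foxp3-positive group low at 27.8 CPM (44 UMIs), the opposite order to *Tgfbr1*. Fibroblast-like barcodes had the highest levels, 457 and 582 CPM, with a log2 ratio of -0.35 (-0.73 to 0.05). B-like barcodes had 7 UMIs in 744 barcodes. Macrophage-like barcodes had 6.36 and 3.38 CPM (27 and 68 UMIs), and the sign of this ratio turned when barcodes were thinned to equal depth. Markers of T cells summed to 78.9 and 5.82 CPM in macrophage-like barcodes and to 45.3 and 1.47 CPM in endothelial-like barcodes, against 3087 and 3199 CPM in T-like barcodes, and their part in these *Tgfbr3* values was not tested. Genes of long genomic span also lay above 0 in NOD/ShiltJ. Among the 1713 tested genes whose RefSeq span was within 2-fold of that of *Tgfbr3* (183 kb) the endothelial median log2 ratio was 0.27, and 18.7% of them were past 1.5-fold higher.

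*Eng* marked the endothelium in both libraries. Its level there was 928 CPM (903 to 953) and 1007 CPM (992 to 1021), a log2 ratio of -0.12 (-0.16 to -0.07). This ratio was 0.05 with free RNA subtracted by salivary secretory genes and -0.1 with free RNA set by lineage genes. Of the *Eng* UMIs, 88.3% and 93.2% lay in endothelial-like barcodes. Capillary-like barcodes (942 and 1032 CPM) exceeded arterial-like ones (714 and 604 CPM). Fibroblast-like barcodes had 84.4 and 202 CPM (45 and 25 UMIs), and 1 CD1 barcode held 15 of the 25. T-like barcodes had 1.30 and 4.77 CPM, where barcodes of 10 to 100 UMIs, which stand for free RNA, had 59.2 and 253 CPM. Over all barcodes *Eng* was at 140 CPM in NOD/ShiltJ and 417 CPM in CD1, and the log2 ratio of -1.58 became -0.45 at equal class sizes. In that weighting the barcodes with markers of several lineages were 1 class, at 53.7 and 239 CPM.

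**Figure D2:**
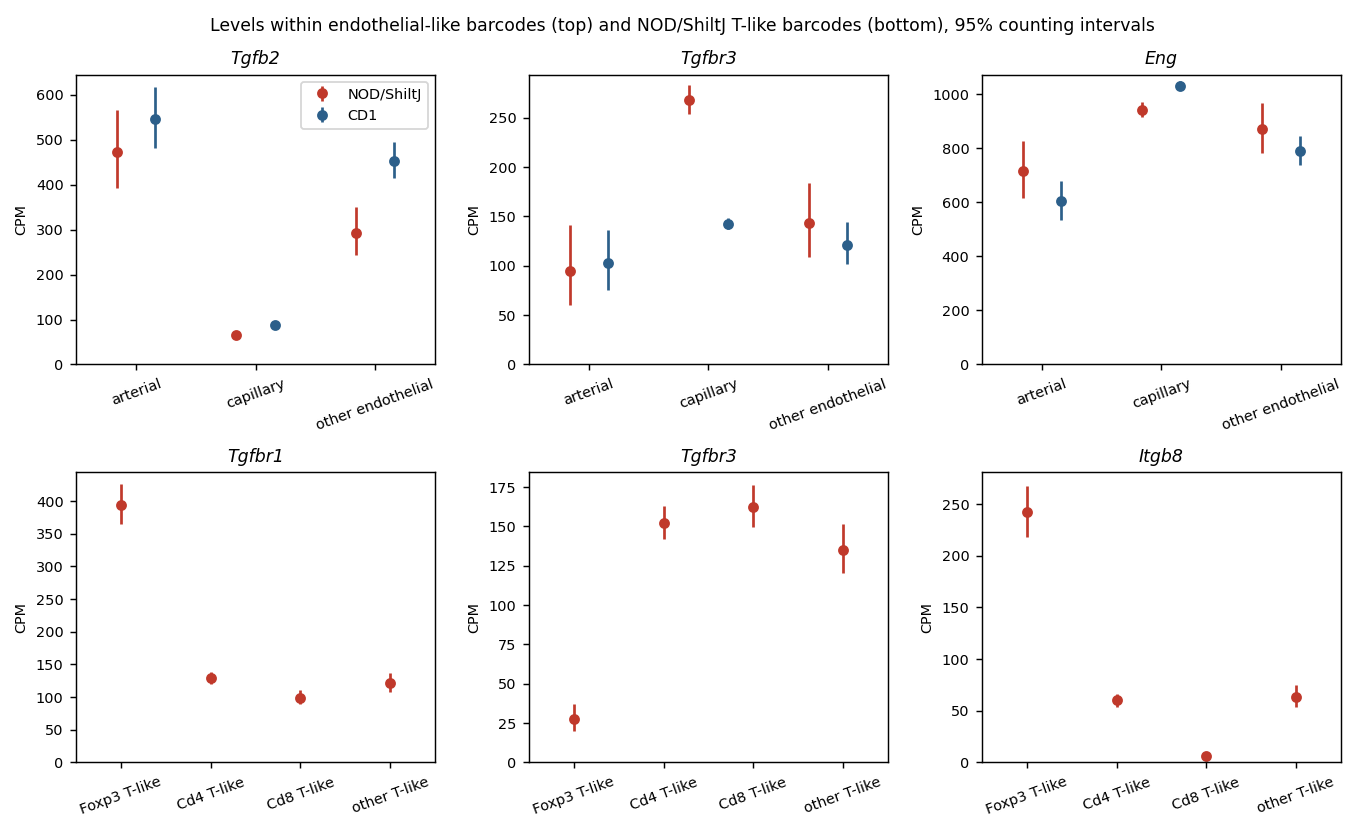
Levels in CPM with exact 95% counting intervals in arterial-like, capillary-like and other endothelial-like barcodes of both libraries (top) and in T-like groups of NOD/ShiltJ (bottom). *Tgfb2* is lowest in capillary-like and *Tgfbr3* in NOD/ShiltJ highest in capillary-like barcodes, whereas in T-like barcodes *Tgfbr1* and *Itgb8* are highest and *Tgfbr3* lowest in the Foxp3-positive group.

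*Smad3*, the receptor-activated transducer, was highest in fibroblast-like barcodes, at 386 CPM in NOD/ShiltJ (206 UMIs) and 299 CPM in CD1 (37 UMIs). NK-like barcodes had 137 and 128 CPM, T-like 118 and 130 CPM, macrophage-like 75.1 and 64.6 CPM and endothelial-like 33.2 and 26.3 CPM. NK-like and T-like barcodes of CD1 had overlapping intervals. B-like barcodes of NOD/ShiltJ were low at 17.6 CPM. The strain log2 ratio was 0.34 (0.09 to 0.58) in endothelial-like and 0.22 (0.04 to 0.40) in macrophage-like barcodes, where it was -0.14 as a mean over barcodes, and the intervals of the T-like and NK-like ratios held 0. In the whole library *Smad3* was at 93.9 against 57.6 CPM (log2 ratio 0.70), and 0.10 remained at equal class sizes.

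*Smad7*, the inhibitory Smad, had another order. Endothelial-like barcodes were highest at 307 and 290 CPM, followed by NK-like (248 and 254 CPM), T-like (218 and 200 CPM) and macrophage-like barcodes (122 and 96.8 CPM). Fibroblast-like barcodes, the top class for *Smad3*, had 30.0 and 40.4 CPM (16 and 5 UMIs). The strain log2 ratio was 0.34 (0.20 to 0.48) in macrophage-like barcodes and 0.12, -0.04 and 0.09 in T-like, NK-like and endothelial-like barcodes. Arterial-like barcodes (375 and 371 CPM) had more *Smad7* than capillary-like ones (301 and 282 CPM), although the NOD/ShiltJ arterial interval (303 to 458 CPM) overlapped the capillary one (286 to 316 CPM). UMIs of *Smad3* and *Smad7* together were found, at 2000 UMIs per barcode, in 7.22% and 13.3% of T-like, 7.58% and 8.43% of NK-like, 2.38% and 2.11% of macrophage-like and 2.01% and 1.90% of endothelial-like barcodes.

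Within classes few of the 10 genes passed 1.5-fold, and over whole libraries most did. Among genes with at least 20 UMIs over both libraries, 1 of 7 was higher in NOD/ShiltJ and 1 lower in T-like barcodes (*Tgfbr3* and *Eng*, the latter from 17 and 3 UMIs), where 38.3% of all 12870 tested genes were past that fold (26.3% higher, 11.9% lower). None of 6 passed in NK-like barcodes (22% of all genes, 12.2% higher and 9.83% lower). In macrophage-like barcodes 1 of 10 was higher and 1 lower (*Tgfbr3* and *Tgfb2*, the latter from 0 and 33 UMIs). Of all genes 26.6% passed there (15.3% higher, 11.3% lower). In endothelial-like barcodes 1 of 9 was higher (*Tgfbr3*) and none lower, beside 24.3% of all genes (15% higher, 9.32% lower). Fibroblast-like barcodes had 2 of 8 lower (*Tgfb2* and *Eng*) and none higher, beside 43.9% of all genes (29.6% higher, 14.2% lower). For both genes 1 CD1 barcode held a large part of the UMIs, as given above. Over whole libraries 2 of 10 were higher and 5 lower, with 48.5% of all genes past the fold (25.4% higher, 23.1% lower). The median log2 ratio of these genes was 0.12, 0.07, 0.13 and 0.09 in T-like, NK-like, macrophage-like and endothelial-like barcodes, beside 0.15, 0.03, 0.06 and 0.06 over all tested genes. In each class the share of these genes past the fold was below that of all genes, and over whole libraries above it.

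**Figure D3:**
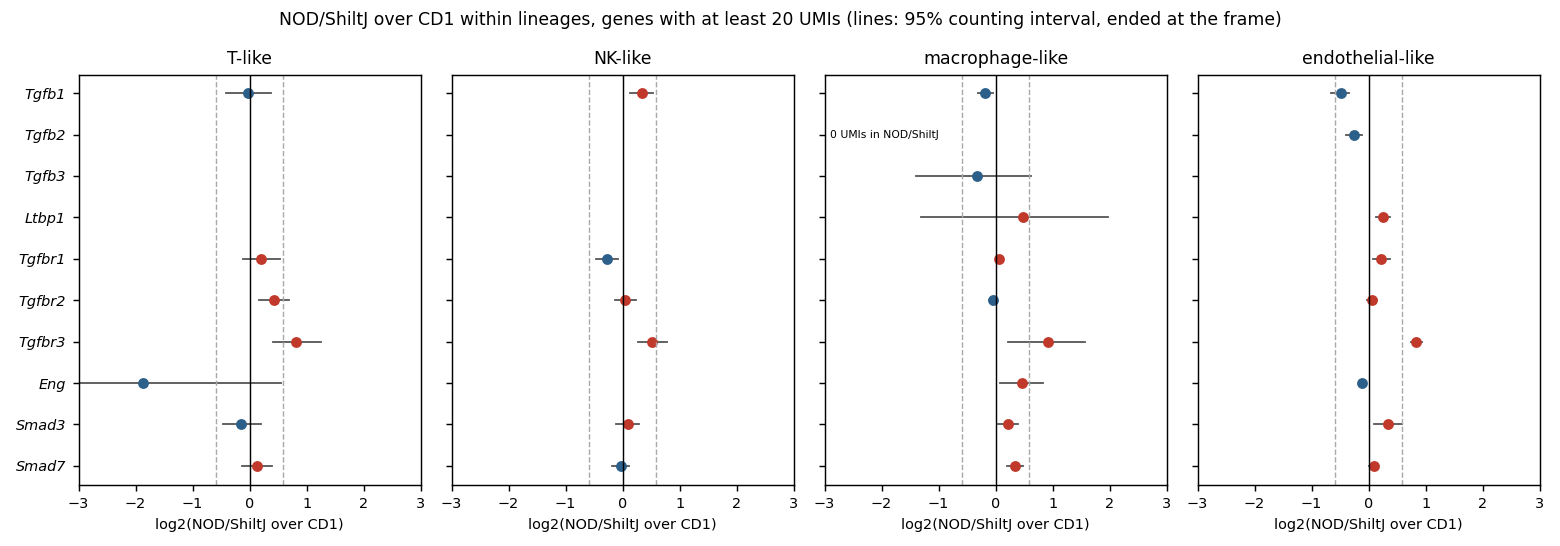
Log2 ratio of NOD/ShiltJ over CD1 (horizontal axis) for the 10 genes in the 4 classes with at least 50 barcodes in both libraries. Lines are 95% counting intervals and dashed lines mark 1.5-fold, which *Tgfbr3* passes in T-like (0.81) and endothelial-like (0.84) barcodes.

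**Figure D4:**
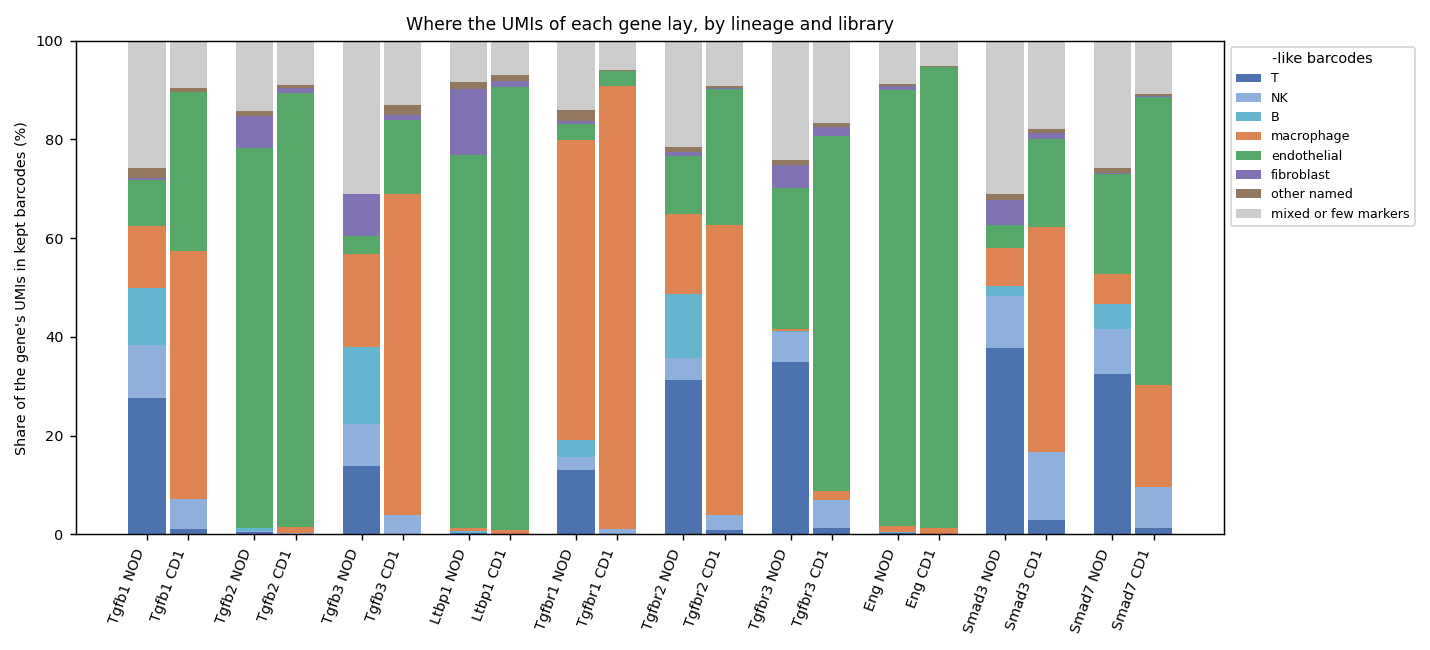
Share of the UMIs of each gene (vertical axis, %) by lineage and library. T-like barcodes hold 27.7% of *Tgfb1* UMIs in NOD/ShiltJ and 1.02% in CD1, beside 27.8% and 1.10% of barcodes. *Eng*, *Ltbp1* and *Tgfb2* are mostly endothelial in both.

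The wider pathway was read from a list of 50 genes. Of those with at least 20 UMIs, 9 of 26 were past 1.5-fold higher and 1 lower in T-like barcodes, 1 and 3 of 21 in NK-like, 4 and 7 of 38 in macrophage-like, 5 and 8 of 42 in endothelial-like and 7 and 8 of 34 in fibroblast-like barcodes. Over all tested genes 26.3% were higher and 11.9% lower in T-like, 12.2% and 9.83% in NK-like and 15.3% and 11.3% in macrophage-like barcodes. The shares were 15% and 9.32% in endothelial-like and 29.6% and 14.2% in fibroblast-like barcodes. With both directions together, the pathway counts were near the background in T-like, NK-like, macrophage-like and fibroblast-like barcodes and above it in endothelial-like ones. In every class but T-like more pathway genes were lower than higher, unlike all genes. These differences were not tested. Of the 9 in T-like barcodes 4 had 0 UMIs in CD1, and for 3 of these, with 20 to 25 UMIs in NOD/ShiltJ, that 0 gives no fold. Among the intracellular Smads and their regulators 1 of 10 passed the fold in T-like barcodes (*Smurf1*, a ubiquitin ligase, 49.9 and 30.2 CPM, beside 38.3% of all genes). None of 10, 12 and 12 passed it in NK-like, macrophage-like and endothelial-like barcodes (22%, 26.6% and 24.3% of all genes), while in fibroblast-like barcodes 2 of 10 were higher and 1 lower (43.9% of all genes). The genes for ligand latency and activation had 4 of 7 higher and none lower in T-like barcodes (26.3% of all genes higher), where *Lrrc32*, with 21 and 0 UMIs, gives no fold. In endothelial-like barcodes 2 of 13 were higher and 4 lower (15% and 9.32% of all genes).

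*Pmepa1*, a TGF-beta target whose product dampens Smad signalling, was lower in NOD/ShiltJ in every class where it was measured in depth. It was at 803 and 1687 CPM in macrophage-like barcodes (log2 ratio -1.07, -1.12 to -1.02), 112 and 188 CPM in T-like (-0.74, -1.01 to -0.45), 85.9 and 152 CPM in NK-like (-0.83, -1.05 to -0.61), 57.2 and 87.1 CPM in endothelial-like (-0.60, -0.78 to -0.43) and 178 and 493 CPM in fibroblast-like barcodes (-1.47, -1.95 to -0.98). Other targets were higher in some classes and lower in others. In macrophage-like barcodes *Tgfbi*, a matrix adhesion protein, was at 358 and 160 CPM (log2 ratio 1.16), fibronectin (*Fn1*) at 62.2 and 3.83 CPM (4.02) and the early response gene *Klf10* at 29.2 and 15.8 CPM (0.88). Endothelial-like barcodes had *Ccn2*, a matricellular protein, at 18.0 and 10.8 CPM (0.73). *Itgae*, the alpha-E integrin of tissue-resident lymphocytes, was at 12.6 and 46.5 CPM in NK-like barcodes (-1.89). The smooth muscle genes *Acta2* and *Tagln* were low in endothelial-like and macrophage-like barcodes, between 1.88 and 13.1 CPM, and past 1.5-fold lower in NOD/ShiltJ in both classes, although the endothelial *Tagln* ratio was 0.02 under a stricter marker limit.

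Genes that hold or release the ligand differed by class. *Itgb8*, whose integrin with alpha-v activates latent TGF-beta, was at 371 and 647 CPM in macrophage-like barcodes (log2 ratio -0.80, -0.88 to -0.73). In T-like barcodes it had 890 UMIs (68.2 CPM) in NOD/ShiltJ and 0 in CD1. This was 14.3-fold higher against the 3 UMIs that a count of 0 allows in that class, and the log2 interval began at 3.54. Foxp3-positive T-like barcodes of NOD/ShiltJ carried 242 CPM, Cd4 T-like 59.9 CPM and Cd8 T-like 5.73 CPM, and CD1 had 3 Foxp3-positive T-like barcodes. *Itgav*, the alpha-v chain, was at 170 and 81.1 CPM in T-like (1.07, 0.67 to 1.5) and 58.3 and 37.8 CPM in endothelial-like barcodes (0.63, 0.43 to 0.81). The co-receptor *Nrp1* was at 357 and 192 CPM in T-like barcodes (0.89, 0.63 to 1.16) and *Nrros*, which anchors latent TGF-beta on myeloid cells, at 26.2 and 14.3 CPM from 342 and 9 UMIs. *Klf10* was at 30.0 and 15.9 CPM in T-like barcodes (0.92, with 10 UMIs in CD1), and this sign turned when barcodes were thinned to equal depth.

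In endothelium the carriers of latent ligand did not share a direction. *Ltbp1* was slightly higher in NOD/ShiltJ, as given above, and *Nrros* was at 45.1 and 39.0 CPM (log2 ratio 0.21, 0.00 to 0.42), both within 1.5-fold (*Nrros* is named here after its values were seen). *Ltbp4*, a matrix binding protein of latent TGF-beta, was lower in NOD/ShiltJ, at 239 and 482 CPM (log2 ratio -1.01, -1.10 to -0.93), as was *Lrrc32* (GARP), a cell-surface anchor, at 22.3 and 65.5 CPM (-1.55, -1.83 to -1.29). *Ltbp4* was also lower in capillary-like (210 and 462 CPM) and arterial-like (564 and 925 CPM) barcodes taken apart, and in fibroblast-like barcodes (296 and 630 CPM, -1.09, -1.49 to -0.68). *Emilin1* (3.46 and 6.60 CPM) and *Itgb8* (1.21 and 3.35 CPM) were lower at low levels, while the microfibril gene *Fbn1* was higher at 50.2 and 32.2 CPM (0.64, 0.43 to 0.84). The median log2 ratio of genes of like span was 0.09 for *Ltbp4* and -0.04 for *Lrrc32* in this class. In macrophage-like barcodes *Ltbp4* was lower in NOD/ShiltJ, at 0.236 and 4.68 CPM (1 and 94 UMIs). *Bambi* (1.65 and 2.54 CPM, 7 and 51 UMIs) and *Vasn* (1.18 and 2.54 CPM, 5 and 51 UMIs) were lower too. *Itgae* was higher there, at 4.00 and 2.39 CPM (17 and 48 UMIs). *Itgb3* in NK-like barcodes was at 12.9 and 8.46 CPM (41 and 26 UMIs).

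**Figure D5:**
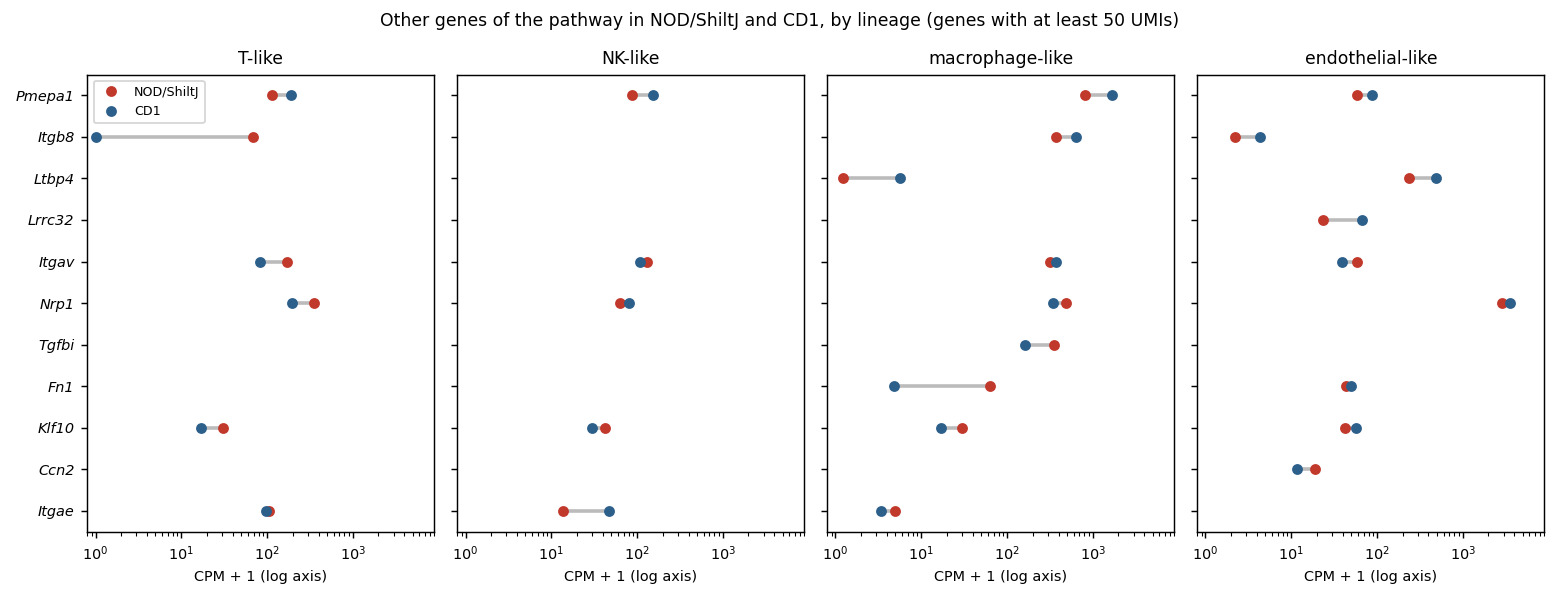
Level of other pathway genes, as CPM + 1 on a log axis, in the 4 main classes, with NOD/ShiltJ in red and CD1 in blue, where at least 50 UMIs were counted. *Pmepa1* lies to the left in NOD/ShiltJ in all 4 classes, and *Itgb8* lies to the right in T-like but to the left in macrophage-like barcodes.

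Fibroblast-like barcodes, the best known responders in fibrosis, were few, with 47 in NOD/ShiltJ and 11 in CD1. Besides *Pmepa1* and *Ltbp4*, *Tgfbi* (221 and 646 CPM), *Ccn2* (75.0 and 162 CPM) and the integrin chain *Itgb5* (180 and 436 CPM) were past 1.5-fold lower, and the membrane protease *Mmp14* was higher (465 and 194 CPM, log2 ratio 1.26, 0.65 to 1.93). *Ppm1a* was lower (71.2 and 113 CPM, 38 and 14 UMIs) and *Usp15* higher (99.4 and 40.4 CPM, 53 and 5 UMIs). Both were past the fold with intervals that held 0. The fibrillar collagens *Col1a1*, *Col1a2* and *Col3a1* had log2 ratios of 0.15, -0.06 and -0.02 per UMI of these barcodes. Over all barcodes they were at 19.9 and 3.95, 36.6 and 8.76, and 48.8 and 10.3 CPM, higher in the library with more fibroblast-like barcodes.

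Genes with the most similar distribution were named from the Pearson correlation of log2(CPM + 10) over 9 class-by-library groups among 13602 genes. With so few groups, which share libraries and depth, these are descriptions. *Eng* was closest to *Plcb1*, *Cracr2b* and *Smad6* (r = 1.00, 0.998 and 0.998), *Tgfb2* to *Esam*, *Col4a2* and *Bcam* (0.999 each) and *Ltbp1* to *Eml1*, *Lama4* and *Akr1c14* (1.00, 1.00 and 0.999). *Esam* was itself a marker used to name endothelial-like barcodes. *Tgfbr1* was closest to *Gm32435*, *Tep1* and *Capn3* (0.996, 0.993 and 0.993), *Tgfbr2* to *Bmyc*, *Abraxas2* and *Marcksl1* (0.984, 0.962 and 0.961), and *Tgfbr3* to *Utrn*, *Ttc39c* and *Tm9sf3* (0.993, 0.985 and 0.980). *Smad3* was nearest to *Pld3*, *Sema4a* and *Rab8b* (0.976, 0.973 and 0.971) and *Smad7* to *Itga1*, *Entr1* and *Ctla2a* (0.995, 0.989 and 0.984). The broad *Tgfb1* had no match above 0.912 (*Gm42085*, then *Cdc42* at 0.908 and *Plek* at 0.895), and *Tgfb3*, with its few UMIs, was nearest to *Tbc1d5*, *Gm11515* and *Naip6* (0.969, 0.964 and 0.962).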

How the data were processed

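Per the labels and the study's methods, 1 scRNAseq library (10x Genomics) was made from each strain, and the submitters' processing notes name Cell Ranger 8.0.0, R 4.3.1, Seurat 5.0.1 and GRCm39. The authors deposited raw UMI counts per gene and barcode (unit counts, not normalized), 1298073 barcodes with 52790319 UMIs for NOD/ShiltJ and 1331542 barcodes with 56483149 UMIs for CD1, and these counts were used as deposited. Barcodes with at least 500 UMIs and 300 genes were kept.

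A barcode took the lineage whose marker list had the most UMIs (at least 3, from at least 2 markers), if the next list had at most 25% of it. Barcodes over that limit count as possible doublets and were left unnamed, and removal by Scrublet (scanpy 1.11.5) was an alternative. Counts were summed per class and divided by its UMIs. Levels carry exact Poisson, shares exact binomial (Clopper-Pearson) and ratios conditional binomial 95% intervals (scipy 1.17.1). The ratio intervals were checked on simulated Poisson counts, the model they assume. That check does not cover uneven spread of UMIs between barcodes. With 1 library a strain no test was run, and 1.5-fold with at least 20 UMIs marks a difference in size only. T-like barcodes were split by UMIs of *Foxp3*, *Cd4*, *Cd8a* and *Cd8b1*, and endothelial-like ones by arterial, venous, capillary and lymphatic lists. Equal class sizes mean CD1 class levels weighted by the UMIs of each NOD/ShiltJ class. Barcodes with markers of several lineages and those with too few markers entered as classes of their own. For thinned values each barcode was drawn down to 2000 UMIs, leaving out shallower ones (463 of 717 NOD/ShiltJ macrophage-like barcodes remained, and 2226 of 2945 of CD1). RefSeq spans were of GRCm38.p6 and used for length only, with 95.5% to 97.9% of tested genes matched.

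All 10 genes were named, pathway genes past 1.5-fold with at least 50 UMIs, and for each of the 10 the 3 genes of highest correlation. 1 pathway gene that met this rule is not reported here. The genes, marker lists and pathway list were chosen with earlier results of these data known.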

Additional observations from a re-analysis of the deposited data

Results flagged for a closer look

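*Itgb8* lay past 1.5-fold in opposite directions in different classes. It was higher in NOD/ShiltJ in T-like barcodes (890 UMIs against 0, 14.3-fold against the limit of 3 UMIs). The log2 ratio was -0.80 in macrophage-like and -1.47 in endothelial-like barcodes, the latter from 7 and 64 UMIs. Macrophage markers summed to 43.1 and 70.6 CPM in endothelial-like barcodes (NOD/ShiltJ and CD1), against 13234.5 and 13401.7 CPM in macrophage-like barcodes. Their part in the low endothelial *Itgb8* values was not tested. The difference between the classes was not tested. T-like barcodes of CD1 numbered 77, of which 3 had a *Foxp3* UMI, against 1807 and 201 in NOD/ShiltJ.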

How the results depend on the processing

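Alternatives changed depth, mitochondrial, doublet and marker rules, scaling and free RNA subtraction, and 3 were chosen after seeing the data (2 marker rules and free RNA set by lineage genes). Log2 ratios are of NOD/ShiltJ over CD1. For *Tgfb1* over all barcodes the ratio of -0.24 was 0.05 with free RNA subtracted, -0.33 with median-of-ratios scaling and -0.40 thinned to 2000 UMIs per barcode. That subtraction, set by salivary secretory genes, took 50.2% of NOD/ShiltJ and 14.2% of CD1 UMIs as free RNA. In T-like barcodes the *Tgfb1* ratio of -0.04 was 0.38 when thinned. In macrophage-like barcodes the *Tgfb1* ratio of -0.18 was -0.34 as a mean over barcodes and -0.47 when thinned. The *Tgfbr1* ratio there, 0.05, was 0.12 after removal of barcodes over 10% mitochondrial UMIs and the highest doublet scores, 0.12 and 0.00 with the next marker list at most 10% and 50% of the leading one, -0.19 as a mean over barcodes, -0.04 with median-of-ratios scaling and -0.02 when thinned. The endothelial-like *Tgfbr2* ratio of 0.06 was -0.06 when thinned. The endothelial-like *Eng* ratio of -0.12 was -0.04 as a mean over barcodes, 0.05 with free RNA subtracted and -0.19 with median-of-ratios scaling. With free RNA set by lineage genes it was -0.1. The lymphocyte share of *Tgfb1* UMIs in NOD/ShiltJ, 67.3%, was 61.1% with the 10% marker limit, 73.2% with free RNA subtracted, 71.0% when thinned and 71.4% with barcodes between T and NK named by the leading list. For the 73.2%, free RNA was taken as 100% of macrophage-like UMIs, where lineage genes gave 2.92%. In CD1, 7.89% became 4.72% and 9.15% with the 10% and 50% limits, 5.85% as a mean over barcodes, 6.10% when thinned and 9.12% with those barcodes named.

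Among ratios past 1.5-fold, signs turned when thinned for *Tgfbr3* (-0.32) and *Vasn* (0.27) in macrophage-like, *Itgb3* in NK-like (-0.72) and *Klf10* in T-like barcodes (-0.37). That of *Tagln* in endothelial-like barcodes turned with the 10% marker limit (0.02). Some ratios within 1.5-fold turned too. *Eng* (0.46) and *Ltbp1* (0.48) in macrophage-like barcodes were -0.44 and -0.47 at their lowest. The smaller *Smad3* ratio in macrophage-like barcodes, 0.22, was -0.14 as a mean over barcodes. The causes were not tested. *Tgfbr3* in endothelial-like barcodes ranged from 0.77 to 0.98, in T-like from 0.47 to 1.00 and in NK-like from 0.38 to 1.22, and *Pmepa1* from -1.16 to -0.29 over T-like, NK-like, macrophage-like and endothelial-like barcodes. Among the 10 genes and named pathway genes apart from the results above, 808 values lay within the counting interval of the main value and 87 outside it. In NOD/ShiltJ macrophage-like barcodes salivary secretory genes were higher than in barcodes of 10 to 100 UMIs (367 and 230 CPM), so free RNA subtraction by these genes gave no strain ratio there. Set by *Flt1*, *Kdr*, *Plvap* and *Fabp4* it was 2.92% and 2.08% of macrophage-like UMIs. Without a count minimum 33.2% of genes in NK-like, 36.9% in macrophage-like, 36.2% in endothelial-like and 51.9% in fibroblast-like barcodes and 52.2% over all barcodes passed 1.5-fold. No paired analysis was possible because each strain has 1 library.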
